A study of Mus musculus with 2 samples.

Results

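Long footprints found in both libraries of a DNase-seq study of mouse hippocampus are described here. DNase I cuts open chromatin, and a footprint is a short stretch inside an open site that is cut less than its surroundings, as happens where a bound protein covers the DNA. Members were selected on measured length: a footprint of replicate 1 on chromosomes 1 to 19 was kept if it was 25 bp or longer and overlapped, by at least 50% of both lengths, a footprint of 25 bp or longer in replicate 2. The rule kept 10022 of the 239107 replicate 1 footprints on these chromosomes, or 4.19%. Both libraries were made from the labelled layer of hippocampus of female B6CASTF1/J mice aged 8-10 months, each from a pool of 2 biosamples. Mice of this strain are first-generation hybrids of C57BL/6J and CAST/EiJ, and both libraries form 1 group with no control or treated arm. The tissue is a mixture of neurons and glia, so a footprint is an average over cell types.

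A single transcription factor usually contacts a short stretch of DNA, and long footprints are known from factors with many DNA-contacting domains and from neighbouring factors. CTCF, the insulator protein that anchors chromatin loops, reads its site with an array of zinc fingers and is the textbook case of a deep, wide footprint. NRF1, SP/KLF factors, NFY and CREB-family factors bind near the starts of widely expressed genes. RNA polymerase III factors bind inside the genes they transcribe, among them the tRNA genes. AP-1, homeobox and MEF2 factors are better known from cell-type-selective or activity-dependent enhancers.

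Examples from the sequences found show what the class holds. All are the C57BL/6J reference (GRCm38, mm10; RefSeq copy), plus strand, 5′ to 3′, over the replicate 1 footprint, and capitals mark a match to the motif named.
Ccdc66 promoter, chr14:27508491-27508556, NFY matches on opposite strands: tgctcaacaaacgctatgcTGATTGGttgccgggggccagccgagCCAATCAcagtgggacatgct
Distal site, chr17:23550325-23550389, AP-1: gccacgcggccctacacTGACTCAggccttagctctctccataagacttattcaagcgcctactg
Dnpep promoter, chr1:75317743-75317770, SP/KLF: gtcacaccgcgCCCCGCCCCactgttcc
Senp2 promoter, chr16:22009347-22009387, NRF1: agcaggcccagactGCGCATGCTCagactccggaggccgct
Senp2 promoter, chr16:22009401-22009425, CRE: gaagaaggTGACGTCAacggcttct
Cycs promoter, chr6:50566715-50566748, CRE: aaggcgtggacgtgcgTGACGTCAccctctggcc
Jund promoter, chr8:70698723-70698749, CRE: gccccacccccaTGACGTCAacccaca
Nucb2 promoter, chr7:116504338-116504364, RFX: aggaggcaGTCACCATGGCAACcagga
Srl promoter, chr16:4542000-4542037, NFI: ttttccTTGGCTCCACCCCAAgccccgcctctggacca
Polg promoter side, chr7:79466460-79466496, B box of a tRNA gene: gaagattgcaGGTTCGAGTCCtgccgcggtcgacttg
Gfap promoter, chr11:102900977-102901014, CTCF: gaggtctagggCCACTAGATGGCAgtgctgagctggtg

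The Ccdc66 and distal chromosome 17 footprints are among the 10 longest. The Dnpep footprint lies in a peak among the highest. The 2 Senp2 footprints sit side by side and hold different motifs. The remaining lines show the highest-signal members for their motif or gene list.

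Lengths and edges of the members, which the overlap rule itself keeps alike, are given first. Members had a median length of 32 bp (25 to 72) by the replicate 1 edges and 31 bp (25 to 71) by those of replicate 2. The first bases differed by a median of 2 bp between libraries, and so did the last bases. Both edges were within 5 bp for 71.6% of members, and identical for 7.06%. By the length limit itself, footprints near 25 bp drop out with a small change of edge: members were 41.9% of the 8810 replicate 1 footprints of 25 to 29 bp, and 84.2% of the 2507 of 40 bp or longer. The same overlap rule joined 16.1% of replicate 1 footprints of 7 to 12 bp to one of that length in replicate 2, or 26997 pairs. A partner longer than 12 bp was not counted, while long footprints had no upper limit, so this share is not directly comparable with those above.

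**Figure D1:**
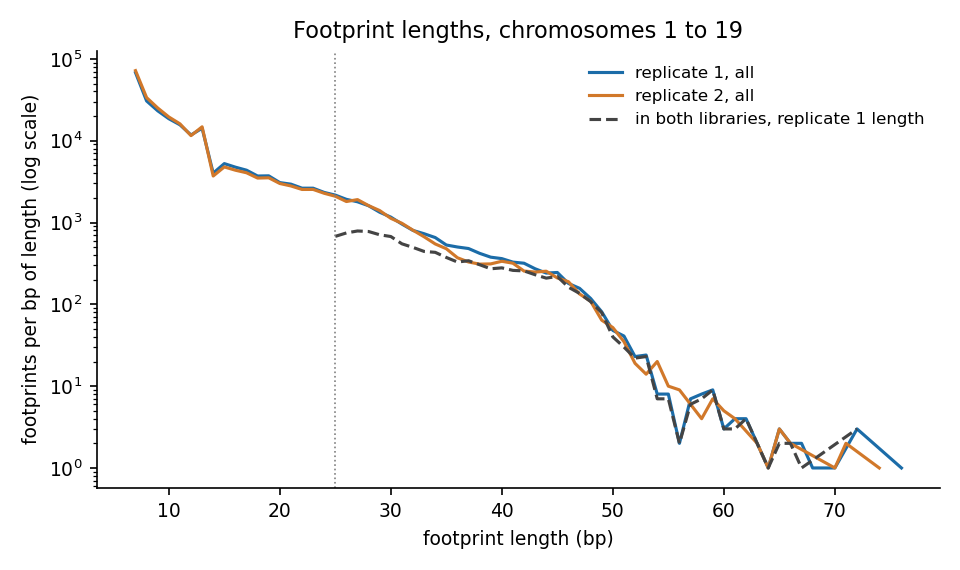
Number of footprints at each length in bp (y axis, log scale) in replicate 1, replicate 2 and among those long in both libraries, with the dotted line at 25 bp. The 2 libraries have nearly the same length curve, and the curve of shared footprints joins them as length grows, reaching 84.2% of replicate 1 footprints at 40 bp or longer.

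The libraries did not contribute alike. Of all footprints of 25 bp or longer, 17933 in replicate 1 and 17048 in replicate 2, 55.9% and 58.8% were members. Of the 7911 in replicate 1 that were not, 50.6% were at promoters and 6.51% had a CTCF match. Of the 7026 in replicate 2 that were not, 25.8% were at promoters and 25.5% had a CTCF match. Most were long in 1 library and short in the other: 92.1% and 82.2% touched only footprints under 25 bp, and 6.90% and 16.8% touched none. At the length limit, the 1361 shared footprints whose shorter copy was 25 bp and the 1494 whose shorter copy was 24 bp held CTCF matches in 19.99% and 19.5%, and lay at promoters in 42.3% and 43.6%.

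Members lay at promoters more often than short footprints did. A promoter here is the 500 bp either side of a protein-coding transcript start in GENCODE M21, and a footprint is placed by its midpoint. Promoters held 4150 members, or 41.4% (Wilson 95% interval 40.4% to 42.4%), against 29.5% of the 167596 replicate 1 footprints of 7 to 12 bp and 25.6% of the 177696 in replicate 2. Of the 26997 short footprints found in both libraries, 34.1% were at promoters, a smaller difference of 7.28 percentage points. Footprints of 13 to 24 bp were there in 40.9% of cases in replicate 1 and 36.3% in replicate 2. Another 5.05% of members lay in exons, 25.3% in introns and 28.3% between genes. Short footprints of replicate 1 had 6.66%, 34.8% and 29.1% there. The order turned when host peak signal was taken into account. Among footprints inside peaks, 40.5% of members were at promoters, against 52.4% of short ones after weighting to the same signal deciles, a difference of -12.0 percentage points in place of 11.9. Intervals cover counting error only, and footprints of a library are not replicates, so no test was made.

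Within promoters, long footprints sat upstream of the start. Their midpoints had a median of -52 bp (quartiles -117 and -9), with the same median from replicate 2 coordinates. Upstream midpoints made up 81.5%, and 52.0% lay within the last 100 bp before the start. Short promoter footprints were centred nearer the start, with medians of -17 and -24 bp for the 2 libraries and -29 bp for those found in both. Upstream midpoints were 57.6%, 61.3% and 64.4% of them, and 29.0%, 33.0% and 35.5% lay in the last 100 bp before the start. The median distance differed by motif: members matching ETS, a family bound close to starts, had a median of -13 bp, CRE -28 bp, ZBTB33 -30 bp, NRF1 -32 bp, SP/KLF -49 bp and NFY, which binds the CCAAT box, -64 bp. Quartiles of these groups overlapped, for example -87 to -2 bp for NRF1 and -112 to -23 bp for NFY.

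**Figure D2:**
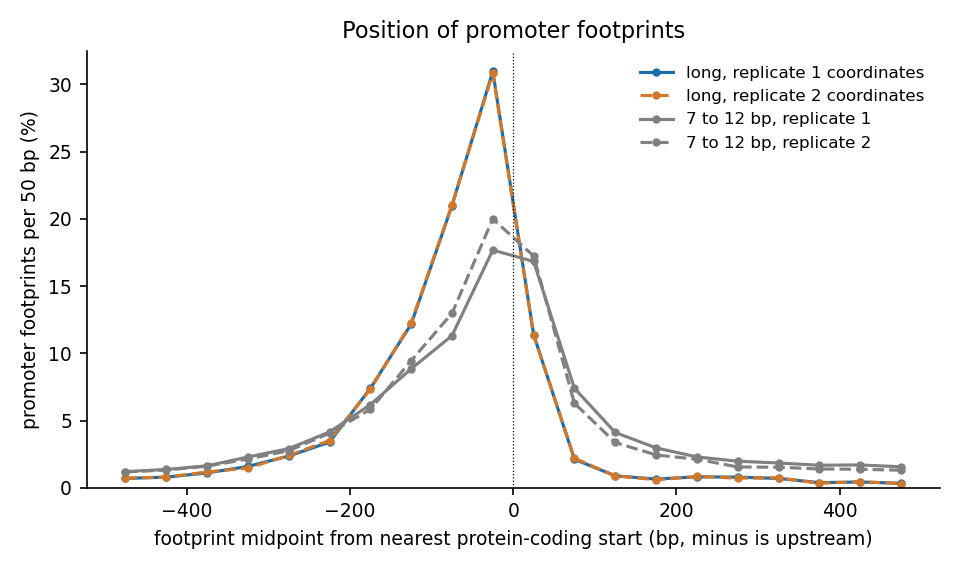
Percent of promoter footprints in each 50 bp bin of distance from the nearest protein-coding start (x axis, negative upstream), for long footprints in both libraries' coordinates and for footprints of 7 to 12 bp in each library. Long footprints peak just upstream and fall to 2.12% by 50 to 100 bp downstream, while short ones spread over the start.

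The peaks that held members were high. Host peak signal is the height the authors gave each peak, on a scale the sources used here do not define. Its median was 1.86 in replicate 1 (quartiles 1.13 and 3.96) and 2.41 in replicate 2 (1.59 and 4.41), while short footprints had 0.7998 and 0.867, with 1.00 for short footprints found in both libraries. Footprints and peaks come from the same reads, so the 2 measures are not independent. The median was higher for the longest footprints, going from 1.67 at 25 to 29 bp to 4.87 at 50 bp or more among all replicate 1 footprints, and from 1.69 to 4.68 in replicate 2. The step was not steady: it went from 2.30 at 35 to 39 bp to 2.12 at 40 to 44 bp in replicate 1, and from 2.24 to 2.12 in replicate 2. Promoter members had a median of 4.24 and the others 1.27 in replicate 1, while short footprints had 1.52 and 0.691. Members lay inside a peak in both libraries in 95.4% of cases and in neither in 1.15%. They sat in 8697 of 96275 replicate 1 peaks, and 768 of these held 2 members, 118 held 3 and 4 held 4.

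**Figure D3:**
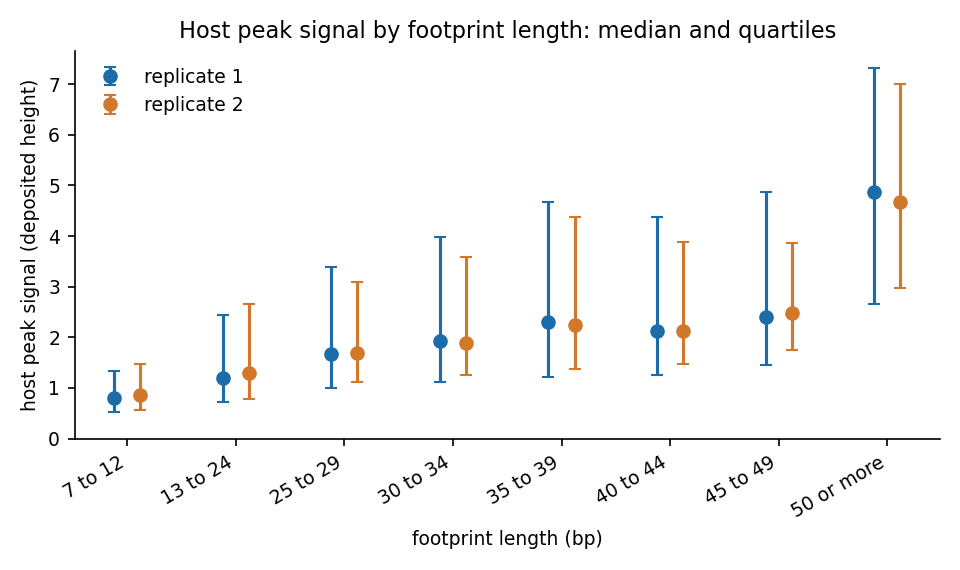
Deposited height of the peak around a footprint (y axis; points are medians, bars run between quartiles) by footprint length in replicate 1 and replicate 2. Medians go from 0.7998 and 0.867 at 7 to 12 bp to 4.87 and 4.68 at 50 bp or more, with a dip at 40 to 44 bp (2.12 in both libraries) and wide overlap between neighbouring lengths.

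Most of the 10 members in the highest peaks were unique sequence, and the first was not. That one, chr3:5860412-5860439, lay between genes with a host signal of 16.9 in replicate 1 and 20.9 in replicate 2, and its 28 bases occur 6 times on the reference chromosomes. All 3 Rab11b promoter members shared a peak of 16.7 and 15.9. Rab11b is a small GTPase of recycling endosomes. These and the members at Trpm8, Dnpep and Acin1 were each found once. The Dnpep peak had a height of 17.8 in replicate 1 and 12.6 in replicate 2. Across all members, 113 (1.13%) shared a 25-base word with another member, so reads there may not be assigned to 1 place.
Chromosome 3 member, chr3:5860412-5860439: tcaatgaagcgcgggtaaacggcgggag
Rab11b promoter, chr17:33760572-33760617, NFY in capitals: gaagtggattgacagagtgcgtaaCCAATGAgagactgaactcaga

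Members were richer in GC and lower in repeats than footprints of 7 to 12 bp. Median GC content, by the edges of either library, was 64.0% and 64.1%, and short footprints had 60% and 57.1%. Footprints of 13 to 24 bp had 66.7% in replicate 1, above the members, and 62.5% in replicate 2. Promoter members reached 71.4%, the same median as short promoter footprints, and members elsewhere 60.6% against 57.1%. After weighting short footprints to the members' host signal, their median was 66.7%, above the 64.0% of members inside peaks. In a window of 50 bp on the midpoint, members averaged 3.06 CpG and short footprints 1.98. Repeat-masked bases were 5.85% of member bases and 7.41% of short footprint bases, and the 2 were close after the same weighting, 5.71% and 5.79%.

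CTCF matches marked the class most often. Motifs were searched on both strands in that 50 bp window, so that long and short footprints were searched over the same length, though their base composition differed. A CTCF match was held by 2560 members, 25.5% (24.7% to 26.4%), against 1.58% of short footprints in replicate 1, 1.64% in replicate 2 and 4.64% of windows on replicate 1 peak midpoints. The reversed, not complemented, letters matched in 0.0998% of members and 0.0471% of short footprints. They hold a fixed CpG that the motif does not, so they are a partial background. Weighting by host signal left the contrast: 26.0% of members inside peaks and 0.913% of short footprints. The share depended on the library, being 17.1% of all footprints of 25 bp or longer in replicate 1 and 25.5% in replicate 2. CTCF members were mostly away from starts: 12.3% lay at promoters and 42.8% between genes, and 38.2% of members outside promoters had a match against 7.57% at promoters. In replicate 1 their host peaks had a median height of 1.17, below the 2.51 of members without a match, of which 51.4% lay at promoters. All members outside promoters had 1.27, but this set overlaps the CTCF members, since 38.2% of it had a match. In replicate 2 the median of CTCF members was 1.72.

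Other motifs were also more frequent in members, and several were less frequent. Relative to short footprints of replicate 1, the share with the B box, the internal promoter element of tRNA genes, was 17.1 times as high (0.429% against 0.0251%). CRE (TGACGTCA), the site of CREB and ATF factors, was 12.2 times as high at 2.03% against 0.166%. NRF1, which drives nuclear genes of mitochondria, stood at 4.40% and 0.739%, and SP/KLF (GGGGCGGGG) at 5.61% and 1.05%. NFY stood at 2.82% and 1.51%, and ETS at 2.06% and 1.09%. All these shares count matches anywhere in the 50 bp window, also beside the footprint. The match lay inside the footprint in both libraries for 148 of 283 NFY, 103 of 206 ETS and 12 of 92 AP-1 members. For CTCF this held for 2487 of 2560, for CRE for 197 of 203 and for NRF1 for 380 of 441. ZBTB33 (CTCGCGAG), whose named factor is Kaiso, stood at 0.409% and 0.0949%, NFI at 1.56% and 0.449%, and RFX, the family of cilium gene regulators, at 0.908% and 0.411%. For RFX the share was 1.06% in replicate 1 footprints of 13 to 24 bp, above that of members. YY1 (GATGGCG) stood at 2.95% and 0.798%, but 56.4% of its members overlapped a CTCF match. The share was lower among members for AP-1 (TGANTCA) at 0.918% against 2.29%, homeobox (TAATTA) at 0.1996% against 0.728%, POU (ATGCAAAT) at 0.0798% against 0.275% and MEF2 at 0.0399% against 0.135%. These 4 motifs were lower in replicate 2 too, and the POU and MEF2 shares rest on 8 and 4 members. The E-box CAGATG, the most frequent motif after CTCF, stood at 6.26% (627 members) against 7.72%. Of its members, 20.4% had it overlap a CTCF match. Reversed letters, a measure of base composition, also differed between the classes. Reversal keeps the base counts but can add or remove a CpG, and it removes that of CRE and the B box. Members held more CpG, so for these motifs the reversed letters are a partial background. They were less frequent in members for homeobox, 0.130% against 0.483%, by about the same factor as the motif, and for AP-1, 0.479% against 0.866%, so the lower shares are not shown to belong to these motifs. They were more frequent in members for NRF1, 0.439% against 0.144%, CRE, 0.259% against 0.1396%, and YY1, 0.559% against 0.285%. For the B box they stood at 0.0299% and 0.0221%, and for NFI at 0.0499% and 0.0298%. SP/KLF letters read the same reversed, so they give no such value. Of the members, 48.3% held none of the 23 motifs in the window, against 79.3% of short footprints.

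**Figure D4:**
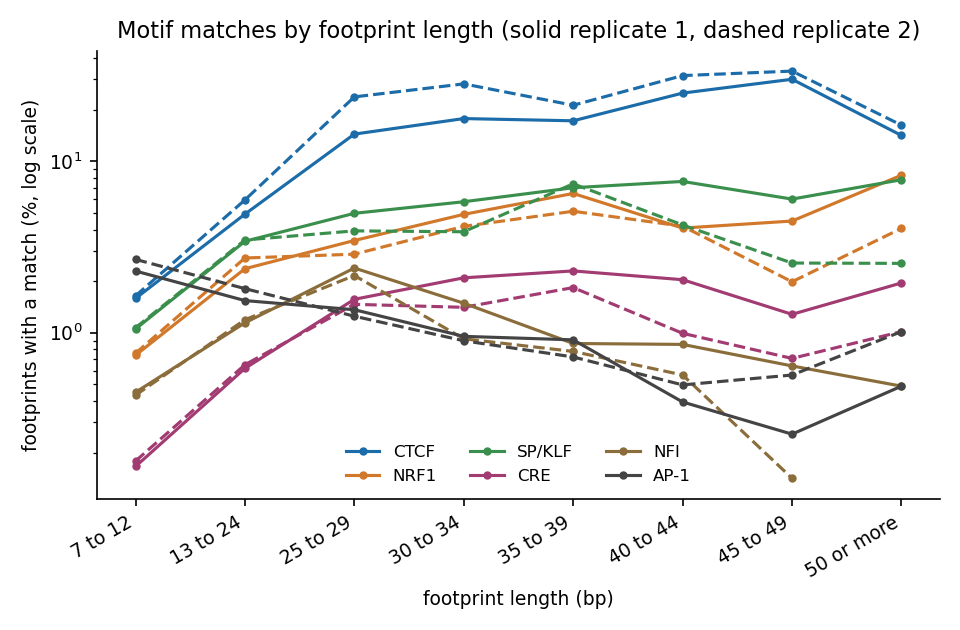
Percent of footprints with a motif match in a 50 bp window (y axis, log scale) by footprint length, for 6 motifs (solid line replicate 1, dashed line replicate 2). CTCF, NRF1, SP/KLF and CRE rise from 7 to 12 bp towards 25 bp and more, NFI is highest at 25 to 29 bp, and AP-1 falls until 40 bp or more; a missing point had no match.

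Read from the motif instead, long footprints covered matches very unequally. Members covered 1.61% of the bases in replicate 1 peaks, and touched 40.2% of the 102 B box matches there, 33.0% of 7655 CTCF matches and 22.2% of 901 CRE matches. For NRF1 the share was 13.9%, for SP/KLF 11.9% and for RFX 5.33%. AP-1 matches were touched in 0.742% of 9841 cases and homeobox matches in 0.302% of 3642, both under the share of bases. Footprints of any length covered 13.1% of the peak bases, and touched 84.01% of CTCF matches, 79.9% of CRE matches and 18.4% of AP-1 matches. A match spans several bases, so it is touched more readily than 1 base is covered.

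Words of 8 bases were also counted without any motif in mind. The word with the highest ratio to short footprints was TGACGTCA, among all members (12.2) and among those without a CTCF match. It was held by 203 members, 2.72% of the 7462 without CTCF, a ratio of 16.4 there, and words that overlap it followed. CGCATGCG, which lies inside the NRF1 site, had a ratio of 10.3 and was held by 147 members. Words that resemble parts of the CTCF site remained in this group, such as AGGGGGCG in 385 members (ratio 6.26), ACCAGGGG (6.38) and ACTAGGGG (6.66). CRE members were at promoters in 86.2% of cases, with median host signal 3.82 and 4.17. In the Senp2, Cycs and Jund sequences above, the capitals show how the word sits near the middle of a footprint of 25 to 34 bp. Senp2 encodes a SUMO protease, Cycs cytochrome c and Jund a subunit of AP-1.

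Among members with a CTCF match, the downstream edge had 1 maximum and the upstream edge 2. The limit of 25 bp in both libraries shapes these edge distances, since shorter footprints were left out. In replicate 1, 2634 footprints of 13 to 24 bp also had a CTCF match in the 50 bp window. The counts below thus describe long CTCF footprints only. Oriented on the motif, 2481 members had 1 match wholly inside both copies. The downstream edge lay a median of 9 bases beyond the match (quartiles 7 and 11). The upstream edge was most often 5 bases away in both libraries, with a second maximum at 23 bases in replicate 1 and 22 in replicate 2. Limits were set after these counts were seen: 1558 members with an upstream edge within 12 bases are called compact, 689 with 18 bases or more extended, and 234 lay between. Median lengths, which these limits and the length rule help to set, were 29 and 30 bp for compact and 43 and 41 bp for extended. Replicate 2 gave the same class for 90.0% of compact and 66.8% of extended members, and 304 members were of opposite kind between the libraries. These shares start from the replicate 1 class, and compact was the more frequent class, so they do not rank the repeatability of the 2 kinds. Extended members had slightly higher host peaks, with medians of 1.39 and 1.97 against 1.11 and 1.66.

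**Figure D5:**
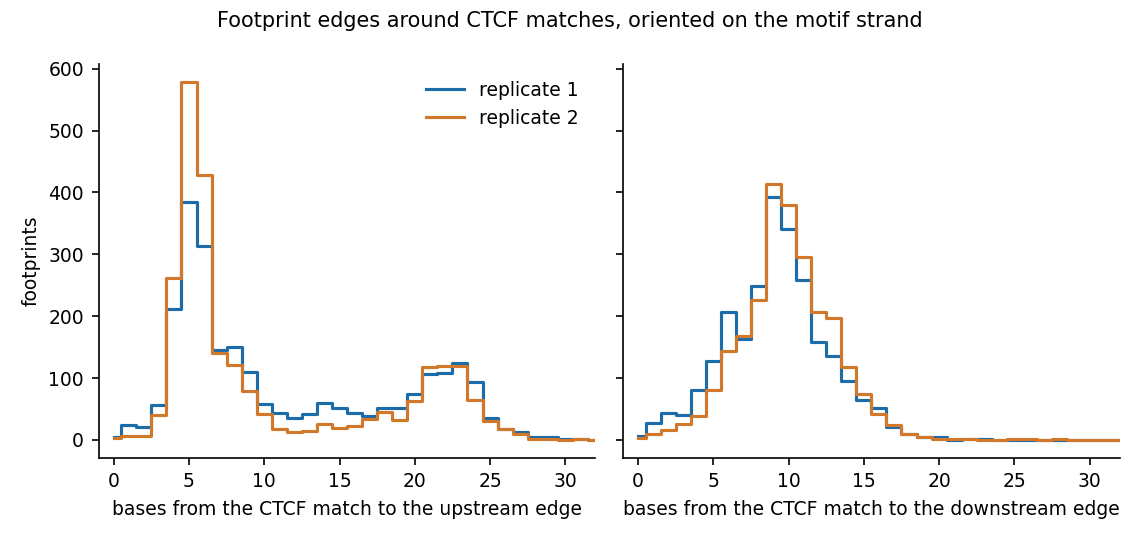
Footprints (y axis, count) by the number of bases from the CTCF match to the upstream edge (left) and downstream edge (right), oriented on the motif strand, for 2481 members in replicate 1 and replicate 2. The left panel has maxima near 5 and 22 to 23 bases in both libraries, and the right panel has 1 near 9.

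The added upstream DNA of extended footprints differed in sequence. Counting bases away from the match, extended members more often had C at 10 bases (68.2% against 35.04% in compact ones), G at 16 (66.8% and 36.9%), T at 12 (69.5% and 40.4%), C at 15 (61.0% and 32.3%), C at 9, A at 14 and T at 17. Read on the motif strand from 17 to 9 bases upstream, these 7 spell TGCANTNCC. At least 5 of the 7 bases were present in 49.4% of 696 extended and 8.03% of 1569 compact members, here with 1 match inside the replicate 1 copy. These include the members from which the letters came, so the shares are a description. Footprints that were not members had not been used to choose the letters. In replicate 2 non-members, 57.7% of 189 extended footprints had at least 5 of 7 (50.5% to 64.5%), against 10.1% of 1439 compact ones (8.63% to 11.7%). In replicate 1 non-members the shares were 32.1% of 81 (22.9% to 42.9%) and 14.0% of 342 (10.8% to 18.1%). All 7 bases were present in 59 of the 461 members that were extended in both libraries when the match was sought in each copy separately.

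Sequences of both kinds are shown for comparison. In the lines of the first group the capitals mark the CTCF match alone.
Compact, chr17:56255947-56255977, minus strand match: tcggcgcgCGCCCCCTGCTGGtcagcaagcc
Compact, chr10:84438194-84438223, minus strand match: ttctctgggCGCCCCCTAGTGGccatgagg
Extended, chr8:20122176-20122219, plus strand match: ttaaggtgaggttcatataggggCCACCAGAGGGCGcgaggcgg
Extended, chr8:19784535-19784580, plus strand match: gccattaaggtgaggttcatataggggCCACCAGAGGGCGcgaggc
In the next lines the capitals mark the match and the 7 upstream bases, and these members were picked after their values were seen, as the highest-signal ones with all 7.
Extended, chr1:86501756-86501803, plus strand match: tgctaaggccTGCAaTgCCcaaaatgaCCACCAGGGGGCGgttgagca
Extended, chr2:167685302-167685349, plus strand match: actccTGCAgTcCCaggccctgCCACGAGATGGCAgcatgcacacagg
Extended, chr7:125393824-125393870, minus strand match: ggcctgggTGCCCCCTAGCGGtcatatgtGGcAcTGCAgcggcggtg

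Host peak heights of the first chromosome 8 member were 10.8 in replicate 1 and 12.2 in replicate 2. Its sequence and that of the second chromosome 8 member overlap and each occurs 4 times on the reference chromosomes. They match 4 of the 7 upstream bases. The chromosome 1 member, at -24946 bp from the start of Ptma, had heights of 2.97 and 4.41, and the chromosome 2 member, at -3589 bp from that of Cebpb, had 3.02 and 4.16.

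Some members lay inside tRNA genes. RefSeq lists 386 on these chromosomes, of which 195 lay in a replicate 1 peak and 75 held members, 87 in all. That was 0.868% of members and 0.0937% of short footprints. All 43 members with a B box match lay in tRNA genes. The Polg example lies beside another member, chr7:79466370-79466431, that is 62 and 61 bp long, and both share a peak with heights of 6.66 and 7.29. Polg encodes the mitochondrial DNA polymerase.

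Among protein-coding genes on chromosomes 1 to 19 with a promoter peak in both libraries, 3639 of 12545 (29.0%) held a member within 500 bp of a start, and this is the background for the lists that follow. Promoter signal moved with this share: sorted by mean peak height into 5 equal groups, 1.32% of genes in the lowest had a member, then 11.2% (median signal 1.42), 26.7% (2.36), 41.8% (3.67) and 64.0% (6.21). Among all 3640 genes with a member, open in both libraries or not, the transcriptional repressor gene Cic had the most members, 8. Of these genes, 899 had 2 or more. Every transcript start of a gene counts, so genes with more starts can have more sequence searched.

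Immediate early genes, which neurons switch on with activity, had a member at 9 of 18 open promoters (Wilson 95% interval 29.03% to 70.97%): Fosl2, Jun, Junb, Jund, Egr1, Arc, Npas4, Nr4a3 and Homer1. The Jund member, 27 bp in both libraries, had host signals of 5.93 and 6.04 and lay at -213 bp from the start. The Homer1 member, 28 and 26 bp long, had 4.97 and 5.25. Nuclear genes of mitochondria had a member at 11 of 20 (34.2% to 74.2%). Cycs, with 7.96 and 7.67, and Atp5b, an ATP synthase subunit gene, with 7.91 and 10.3, were among them. Housekeeping genes had 9 of 14 (38.8% to 83.7%), ribosomal protein genes 10 of 26 and cilium genes 7 of 20, the latter including the regulators Foxj1 and Rfx3. The median promoter signal was 2.90 for the immediate early list, 4.47 for mitochondria, 5.22 for housekeeping, 4.57 for ribosomal proteins and 3.70 for cilium genes.

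Pan-neuronal genes and targets of the repressor REST had a member less often than all open genes, and their promoter signal was also lower. Of 22 open pan-neuronal and glutamatergic genes 1 had a member (0.807% to 21.8%), Dlg4, which encodes the postsynaptic scaffold PSD-95. Of 17 open REST targets 1 had one (1.05% to 27.0%), Npas4. The REST motif was matched by 2 members, 0.01996%, against 0.0179% of short footprints. The glial lists were too small to place against the background. Astrocyte genes had 2 of 9, Gfap and Glul, oligodendrocyte genes 1 of 8, Cnp, and microglia 0 of 2. None of 4 open clustered protocadherin genes had one. The median promoter signal was 1.59 for the pan-neuronal, 1.896 for the REST and 1.16 for the astrocyte list. The intervals of the pan-neuronal and REST counts include the 11.2% of all genes in the second signal group, and that of the REST count also the 26.7% in the third. The Gfap member, shown above with its CTCF match, measured 38 and 32 bp in the 2 libraries and sat in a low peak of 0.933 and 1.38. The Glul member lay inside no peak in either library. All 22 annotated pan-neuronal genes, 9 of 10 astrocyte, 8 of 9 oligodendrocyte and 2 of 10 microglia genes had an open promoter, so markers of neurons, astrocytes and oligodendrocytes were open in both libraries.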

How the data were processed

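Footprints and peaks of each library, on mm10 per the labels, were used as deposited; the larger peak list gave host peaks and the stricter list an alternative. The footprint intervals were deposited by the authors with a p-value threshold of 0.01, and were used for position and length. Peak height is the signal the authors deposited; its scale, the aligner, the callers and the read totals are not stated in the sources used, so depth is unknown and only the number of peaks and footprints bears on precision. Reads of a hybrid were placed on 1 reference.

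A host peak is the one overlapping a footprint most. Positions were set on GENCODE M21, tRNA genes and sequence on RefSeq GRCm38 (python 3.11.15, numpy 2.4.6, pandas 2.3.3, pysam 0.24.0). Of the 23 motifs, REST allowed 3 mismatches, RFX 2, and NRF1, ZNF143 and NFI 1. Overlap and motif code was tested on simulated data. Shares have Wilson 95% intervals, which cover counting error only. Named footprints are the 10 longest, the 10 with the highest mean host signal, the top 2 per motif held by at least 20 members with the match inside both copies, and up to 3 genes per list. Members, motifs and lists were chosen with earlier results of these data known. Alternatives changed minimum length, overlap, library, peak list, promoter width, window and the short footprints compared. Where this is stated, short footprints were weighted to the members' 10 deciles of host signal. Footprints outside chromosomes 1 to 19 were not used. Some named footprints are not reported here.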

Additional observations from a re-analysis of the deposited data

How the results depend on the processing

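Of 58 alternatives over 11 values, 34 stayed within the spread between the libraries (counts within 1.5 times). That spread is the standard deviation of 2 values, 1 from each library. It was 7.41 points for the promoter share and 0.0194 for the GC difference, so the tally is not a measure of robustness. The shares and medians without either replicate are the same values that set the spread. The promoter and GC differences from short footprints turned, to -11.95 and -2.67 percentage points, when short footprints were weighted to the members' host signal; the repeat-masked difference went from -1.57 to -0.0786. The count was 18370 at a minimum of 20 bp and 4559 at 30 bp. Without either replicate it ran from 17048 to 17933, the promoter share from 34.97% to 45.5%, the CTCF share from 17.1% to 25.5%, median host signal from 1.87 to 1.89, GC content from 62.5% to 65.4% and the repeat-masked share from 6.58% to 6.83%. Host signal was 1.92 at 80% overlap, 2.18 at 30 bp and 1.93 inside the stricter peak list. The repeat-masked share was 6.47% at 20 bp and 5.55% inside that list. A promoter of 2000 bp gave 49.3%. With short footprints found in both libraries, the host signal difference was 0.860 and the GC difference 1.5, and in replicate 2 they were 1.54 and 6.96. Outside promoters, an alternative chosen after seeing the data, the CTCF difference was 36.3 points, GC 3.46 and host signal 0.582. The cause of these shifts was not tested. Unknown read depth limits how short footprints can be compared between libraries. The 2 libraries are pools, and no result has a control arm.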

Other observations

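Footprint lengths had a step well below the members' range. Replicate 1 had 14184 footprints of 13 bp and 4014 of 14 bp, and replicate 2 had 14785 and 3701, while 12 bp and 15 bp lay at 11742 and 5248 in replicate 1. Chromosomes 11 and 7 held 8.40% and 7.76% of members, against 7.23% and 6.67% of short footprints of replicate 1.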
